A study of Mus musculus with 146 samples.

Results

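A set of 249 mouse genes was followed over the course of relapsing-remitting EAE (experimental autoimmune encephalomyelitis), in which immunization against myelin gives mice a disease like multiple sclerosis. They belong to the cluster of genes that the authors numbered 2 in their deposited table of genes that vary with disease stage. The table holds 716 genes and cluster 2 holds 292. From these, 43 were left out by symbol, among them MCM helicase, immunoproteasome, MHC, GBP, STAT, IRF, SOCS and chemokine genes and a few single genes such as Mki67 and Isg15. The cluster number was, for all 716 genes, the stage with the highest mean level in ribosome-bound mRNA. The members were therefore selected on the measured values of those libraries, and their peak at initiation is given here as a description, without a test. The authors divided cluster 2 into subclusters 2a, with 80 of the members, and 2b, with 169.

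The study used RiboTag mice, in which Cre recombinase switches on an HA tag on the ribosomal protein RPL22 in a chosen cell type. The genotype was Cx3cr1-CreER:RPL22-HA on an F1 background of C57BL/6 and SJL, and tamoxifen (5 mg, 4 gavages every other day) was given at 4 to 6 weeks of age. Cycloheximide in the homogenisation buffer kept ribosomes in place on the mRNA of whole brains, and each homogenate gave an anti-HA library (ribosome-bound mRNA of tagged cells), an IgG1 isotype library (background of the precipitation) and an input library (RNA of all cells). The groups of the disease course were non-immunized (6 libraries of each kind), initiation (4), maximum (6), remission (8), cure (5) and relapse (4). All of them, the non-immunized ones included, carry the same EAE treatment label and the same Cre, tag and tamoxifen. A second experiment compared Cx3cr1-CreER:RPL22-HA:Ifngr ko/fl with Cx3cr1-CreER:RPL22-HA:Ifngr ko/wt mice (4 anti-HA, 4 IgG and 4 input libraries each), whose titles name EAE but no stage. In both genotypes 1 Ifngr allele is knocked out in every cell, and in ko/fl mice the other can be recombined in Cx3cr1-expressing cells. Another set held T cells sorted from whole brain of both genotypes by CD25. The Cx3cr1 promoter is active in microglia and also in border macrophages and monocytes, and since no label ties a replicate to an animal of its own, p-values measure the spread between these libraries, which may be technical.

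Microglia are the resident macrophages of the brain and divide rarely in the healthy adult. In EAE, T cells enter the central nervous system and release cytokines such as interferon gamma, to which microglia respond with transcription of interferon-inducible genes, and microglia can also proliferate. Proliferation draws on ordered gene programmes: replication factors are made for S phase, kinetochore, spindle and cytokinesis proteins for mitosis, and chaperones, ribosome biogenesis and translation factors for growth. Of the 249 members, 85 are on gene lists for such and other programmes, further ones were grouped after their values were seen, and 111 are in no list or group; the listed and grouped members are described below by role.

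Promoters are shown for 5 members from the groups in which a searched motif was most frequent: the CCAAT box, bound by the factor NF-Y and common in promoters of mitotic and chaperone genes, and the core of the interferon-stimulated response element (ISRE), bound by interferon regulatory factors. Each sequence is the RefSeq window (GRCm38.p6) from 250 bases before to 50 bases after the gene start, 5′ to 3′ on the gene's own strand, which is the minus strand for all 5. Capitals mark the motif on either strand, so that ATTGG is the CCAAT box read on the opposite strand.
Cdca8, chr4:124936868-124937167, 4 CCAAT boxes: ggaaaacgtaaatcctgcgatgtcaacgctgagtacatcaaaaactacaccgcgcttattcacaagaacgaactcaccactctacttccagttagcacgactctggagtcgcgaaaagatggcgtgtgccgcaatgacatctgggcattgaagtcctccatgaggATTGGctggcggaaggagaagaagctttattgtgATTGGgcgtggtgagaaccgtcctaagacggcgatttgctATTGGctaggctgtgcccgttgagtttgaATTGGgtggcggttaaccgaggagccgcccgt
Cks1b, chr3:89418242-89418541, 4 CCAAT boxes: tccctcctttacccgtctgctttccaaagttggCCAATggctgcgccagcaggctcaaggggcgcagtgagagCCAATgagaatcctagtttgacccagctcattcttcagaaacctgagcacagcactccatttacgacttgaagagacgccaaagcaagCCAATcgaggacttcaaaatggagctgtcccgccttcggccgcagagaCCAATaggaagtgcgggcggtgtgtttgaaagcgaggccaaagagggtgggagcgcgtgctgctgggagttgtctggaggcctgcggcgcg
Hsp90b1, chr10:86705395-86705694, 6 CCAAT boxes: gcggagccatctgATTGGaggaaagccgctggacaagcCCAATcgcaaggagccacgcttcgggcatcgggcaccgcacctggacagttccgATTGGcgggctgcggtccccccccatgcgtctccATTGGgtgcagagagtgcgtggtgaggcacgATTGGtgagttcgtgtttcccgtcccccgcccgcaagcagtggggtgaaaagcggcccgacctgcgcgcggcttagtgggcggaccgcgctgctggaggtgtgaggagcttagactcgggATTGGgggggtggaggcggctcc
Eif2ak2, chr17:78882523-78882822, 2 overlapping ISRE cores: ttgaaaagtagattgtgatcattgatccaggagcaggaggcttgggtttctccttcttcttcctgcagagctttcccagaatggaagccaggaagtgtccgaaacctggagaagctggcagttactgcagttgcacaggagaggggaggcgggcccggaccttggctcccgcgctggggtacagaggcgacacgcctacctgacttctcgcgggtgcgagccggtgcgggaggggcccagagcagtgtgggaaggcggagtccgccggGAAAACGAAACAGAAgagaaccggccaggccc
Cd300lf, chr11:115133943-115134242, 1 ISRE core: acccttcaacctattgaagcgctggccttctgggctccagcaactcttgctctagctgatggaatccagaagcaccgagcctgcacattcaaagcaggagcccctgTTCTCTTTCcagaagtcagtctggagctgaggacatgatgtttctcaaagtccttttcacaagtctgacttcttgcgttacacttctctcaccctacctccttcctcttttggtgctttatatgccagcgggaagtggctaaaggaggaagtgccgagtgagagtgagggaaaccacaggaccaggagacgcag

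Of the 249 members, 195 matched a promoter in the RefSeq table, and the 162 with a single window were searched on both strands together with the windows of 22862 genes in all. The CCAAT box (CCAAT) was present in 16 of 21 windows of mitosis genes (76.2%) and in 6 of 7 windows of endoplasmic reticulum chaperone genes (85.7%). It was present in 42.6% of the member windows, against 38.2% of all windows. It was found in 0 of 6 windows of interferon-inducible members and in 0 of 6 windows of surface receptor members. The ISRE core (GAAANNGAA) was present in 3 of 6 receptor windows, 2 of 6 interferon-inducible windows and 3 of 21 mitosis windows, and in 13% of member windows against 8.62% of all windows. The remaining shares, members first, were 6.17% and 8.49% for the interferon gamma-activated site (GAS, TTCNNNGAA), 9.26% and 8.01% for the kappaB motif, and 4.94% and 7.98% for AP-1 (TGANTCA). They were 4.94% and 1.85% for CRE (TGACGTCA), 1.23% and 0.197% for C/EBP (TTGCGCAA), and 0% and 0.328% for E2F (TTTCGCGC). Only this exact sequence was searched for E2F and it was rare in all windows, so the 0% does not show that E2F sites are absent. The motifs can overlap each other and were counted once per window, and a match describes letters in the window, not binding.

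Depth, summed over the genes of the stage table, was 152704 to 880410 reads in anti-HA libraries, 6775 to 162205 in IgG libraries and 49902 to 159540 in inputs. Libraries that stood apart were replicate 5 of non-immunized mice, replicate 2 of initiation, replicate 5 of cure and replicates 6 to 8 of remission among the anti-HA libraries, and replicate 2 of initiation among the inputs; values that move by over 1.5 times without one of them are given both ways. Tagged cells carried microglial transcripts: 11 of 15 homeostatic microglial markers were in the table, and their summed normalized reads per anti-HA library were 46462.3 to 78685.6 at initiation and 96908.5 to 207568.7 in non-immunized mice. The table does not list Tmem119, Sall1 or Olfml3. Of the border macrophage markers 7 of 8 were listed, with sums of 1233.1 to 2116.3 at initiation and 1055.4 to 3115.8 in non-immunized mice. Of 24 infiltrating monocyte markers only F13a1 and Ms4a4c were listed, both are members, and their sum was 191.5 to 417.1 at initiation and 92.2 to 228.9 in non-immunized mice. Of 15 neutrophil markers 1 was listed (39.0 to 46.6 at initiation, 67.9 to 146.7 in non-immunized mice), and 0 of 26 T, NK and B cell markers were. The part of these cells in the results was not tested, and in bulk libraries fewer cells of a type and less RNA per cell cannot be told apart.

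In anti-HA libraries the members were not only highest at initiation but also mostly second highest at the disease maximum. Their mean log2 level (log2 of the normalized reads plus 1, averaged over the 249 genes) was 5.44 ± 0.20 in non-immunized mice (SD, n = 6), 7.18 ± 0.26 at initiation (n = 4), 6.57 ± 0.20 at maximum (n = 6), 6.22 ± 0.47 in remission (n = 8), 5.64 ± 0.58 in cure (n = 5) and 5.82 ± 0.22 at relapse (n = 4). Every initiation library lay above every non-immunized library. The mean over all 716 genes separated too, at 7.17 to 7.352 in initiation libraries and 5.532 to 6.155 in non-immunized ones. The rule used these libraries, so nothing is read from the separation. For the members, cure libraries ran from 5.00 to 6.53. Replicate 5 of cure held the 6.53, and without it the median difference of the members between cure and non-immunized mice was -0.07 in place of 0.15; without replicate 5 of the non-immunized libraries it was 0.09. Without replicates 6 to 8 of remission the median difference in remission was 0.95 in place of 0.71. At initiation the median difference from non-immunized mice was 1.49 for the members and 1.24 for all 716 genes on the log2 scale, with 1.54 for the members without replicate 2 of initiation and 1.37 without replicate 5 of the non-immunized libraries. With quantile normalization the medians were 0.33 for the members and 0.12 for all genes, and 142 of the 249 members then had their highest mean at initiation.

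**Figure D1:**
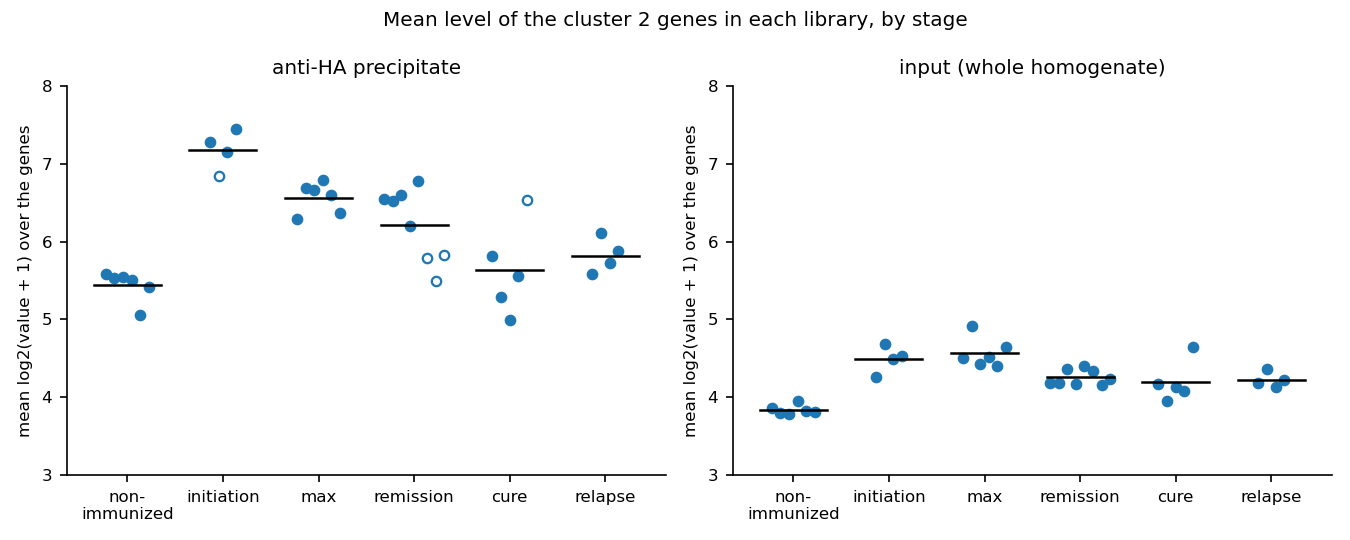
Mean log2(normalized reads + 1) over the 249 genes for each library, by disease stage from non-immunized to relapse, in anti-HA libraries (left) and whole-brain inputs (right). Hollow points, used in the anti-HA panel only, are Initiation 2, Cure 5 and Remission 6 to 8, which stood apart. Replicate 5 of the non-immunized anti-HA libraries and replicate 2 of the initiation inputs also stood apart but are drawn filled. Black lines are stage means. Anti-HA means run from 5.44 in non-immunized mice to 7.18 at initiation and 5.82 at relapse. Input means are highest at maximum (4.57), next to 4.49 at initiation.

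The second-highest stage was maximum for 209 members, remission for 25, non-immunized for 6, relapse for 6 and cure for 3. The peak was often narrow: the mean at initiation exceeded that of the next stage by a median of 0.44 on the log2 scale, by less than 0.1 for 26 members and by more than 1 for 45. All 4 initiation libraries lay above every library of the maximum for 26 members (4.33% of all 716 genes), of remission for 45 (8.52%), of cure for 123 (30.3%), of relapse for 174 (42.9%) and of non-immunized mice for 197 (59.1%); the rule used these libraries, so nothing is read from these shares. Just inside the cluster boundary were Pfn1 (mean log2 9.05 at both initiation and maximum), Rab43 (8.45 at both) and Dnajb14 (6.07 at initiation and 6.06 at maximum). Just outside it were Gbp5, Hsd17b12 and Hlx, with 8.12, 8.66 and 8.25 at both stages. For these genes the means of the 2 stages were nearly equal, and which side of the boundary they fell on rests on that small difference.

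The subclusters separated after the peak. Members of 2a stood 1.62 above non-immunized mice at initiation, 1.23 at maximum, 1.08 in remission, 0.69 in cure and 0.77 at relapse (medians of log2 differences). Members of 2b stood at 1.38, 0.89, 0.54, -0.04 and 0.12 in the same order of stages. Without replicate 5 of cure the cure medians were 0.46 for 2a and -0.27 for 2b, and without replicates 6 to 8 of remission the 2b median in remission was 0.84. Without replicate 5 of the non-immunized libraries the 2b medians were -0.13 in cure and 0.03 at relapse. The stage with the lowest mean was the non-immunized one for 79 of 80 members of 2a, but for only 68 of 169 members of 2b, of which 81 were lowest in cure and 18 at relapse. The subclusters are the authors' and rest on the same libraries, so this is a description of them. In the authors' deposited table, 223 members differed at least 2-fold with an adjusted p under 0.05 between initiation and non-immunized mice (77% of all genes did), 124 between maximum and non-immunized mice (74.7%), 27 between cure and non-immunized mice (27%) and 29 between relapse and non-immunized mice (29.3%); these calls rest on the libraries that chose the members.

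Among the groups described here, genes of mitosis and cytokinesis had the highest median at initiation and the largest difference between maximum and initiation, a median of -1.41 on the log2 scale. The 26 members on this list, 25 of them in 2b, stood a median of 2.95 above non-immunized mice on the log2 scale at initiation in anti-HA libraries, 1.52 at maximum, 0.95 in remission, 0.13 in cure and 0.44 at relapse. They comprise kinetochore and checkpoint genes (Cenpa, Ndc80, Spc24, Bub1b), mitotic motors (Kif2c, Kif22, Kif23), the chromosomal passenger gene Cdca8, condensin subunits (Ncaph, Ncapd2), cytokinesis genes (Racgap1, Arhgap11a) and the transcription factor Foxm1. The initiation libraries differed among themselves: the list's median difference from the non-immunized mean was 3.30, 1.59, 3.10 and 3.72 in replicates 1 to 4. Without replicate 2 the initiation median was 3.41, without replicate 5 of cure the cure median was -0.33, and without replicates 6 to 8 of remission the remission median was 1.79, above that of the maximum. With quantile normalization of the anti-HA libraries the initiation median was 1.41, with 24 of 26 genes above non-immunized mice and a median over all genes of 0.12.

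Cdca8, which encodes borealin of the chromosomal passenger complex, had 264, 107, 351 and 431 normalized reads in the anti-HA initiation libraries, against 9.95 to 38.1 (median 23.7) in the non-immunized ones. It had 34.8 to 130 (median 112) at maximum, 12.95 to 174 (median 71.7) in remission, 37.5, 4.77, 9.48, 19.5 and 93.9 in cure, and 20.6, 70.7, 21.2 and 34.2 at relapse. Initiation and non-immunized libraries did not overlap, while initiation replicate 2 lay within the range of the maximum. Its promoter is the first printed above, with 4 CCAAT boxes. Kif2c, a kinesin that depolymerises microtubules at kinetochores, had 202, 109, 173 and 191 at initiation and 4.84 to 17.6 (median 6.69) in non-immunized mice, a mean log2 difference of 4.26. At relapse it had 24.0, 62.0, 38.0 and 53.3, all above the non-immunized range. Spc24, an NDC80 complex subunit, had 170, 81.0, 200 and 226 at initiation and 3.42 to 27.2 (median 11.9) in non-immunized mice. Cks1b, a cyclin-dependent kinase subunit with 4 CCAAT boxes in its window, had 259, 91.1, 243 and 333 at initiation and 21.8 to 58.7 (median 35.7) in non-immunized mice. In each of these genes replicate 2 was the lowest initiation library. Tuba1c, an alpha-tubulin, had 645, 492, 813 and 791 at initiation and 59.8 to 134 (median 108) in non-immunized mice; its reads could be shared with near-identical tubulin genes.

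Genes of DNA replication and repair had a lower median at initiation than mitosis genes. The 23 members on this list, 19 of them in 2b, stood a median of 2.12 above non-immunized mice at initiation, 1.03 at maximum, 0.79 in remission, 0.23 in cure and 0.38 at relapse on the log2 scale. Replicates 1 to 4 of initiation gave 1.80, 1.51, 2.22 and 2.53, closer together than for mitosis genes, and the median without replicate 2 was 2.16. Without replicates 6 to 8 of remission the remission median was 1.22, above that of the maximum. The cure median was 0.01 without replicate 5 of cure and 0.15 without replicate 5 of the non-immunized libraries. Nasp, a histone chaperone, had 145, 126, 237 and 266 normalized reads at initiation and 29.9 to 52.8 (median 36.9) in non-immunized mice. Lig1, the ligase that seals Okazaki fragments, had 150, 115, 279 and 281 at initiation and 23.0 to 109 (median 64.5) in non-immunized mice. Rpa2, a subunit of the single-strand binding protein RPA, had 221, 215, 232 and 349 at initiation and 75.9 to 188 (median 117) in non-immunized mice. Pold2, a polymerase delta subunit, had 180, 196, 207 and 202 at initiation and 82.8 to 126 (median 108) in non-immunized mice. The 4 genes did not overlap between these stages. A further 10 cell cycle and chromosome genes, grouped after their values were seen, had an initiation median of 2.18; among them H2afx, the histone variant phosphorylated at DNA breaks, had 1003, 316, 879 and 999.9 normalized reads at initiation, against 145 to 195 (median 159) in non-immunized mice and 183 to 372 (median 280) at maximum.

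**Figure D2:**
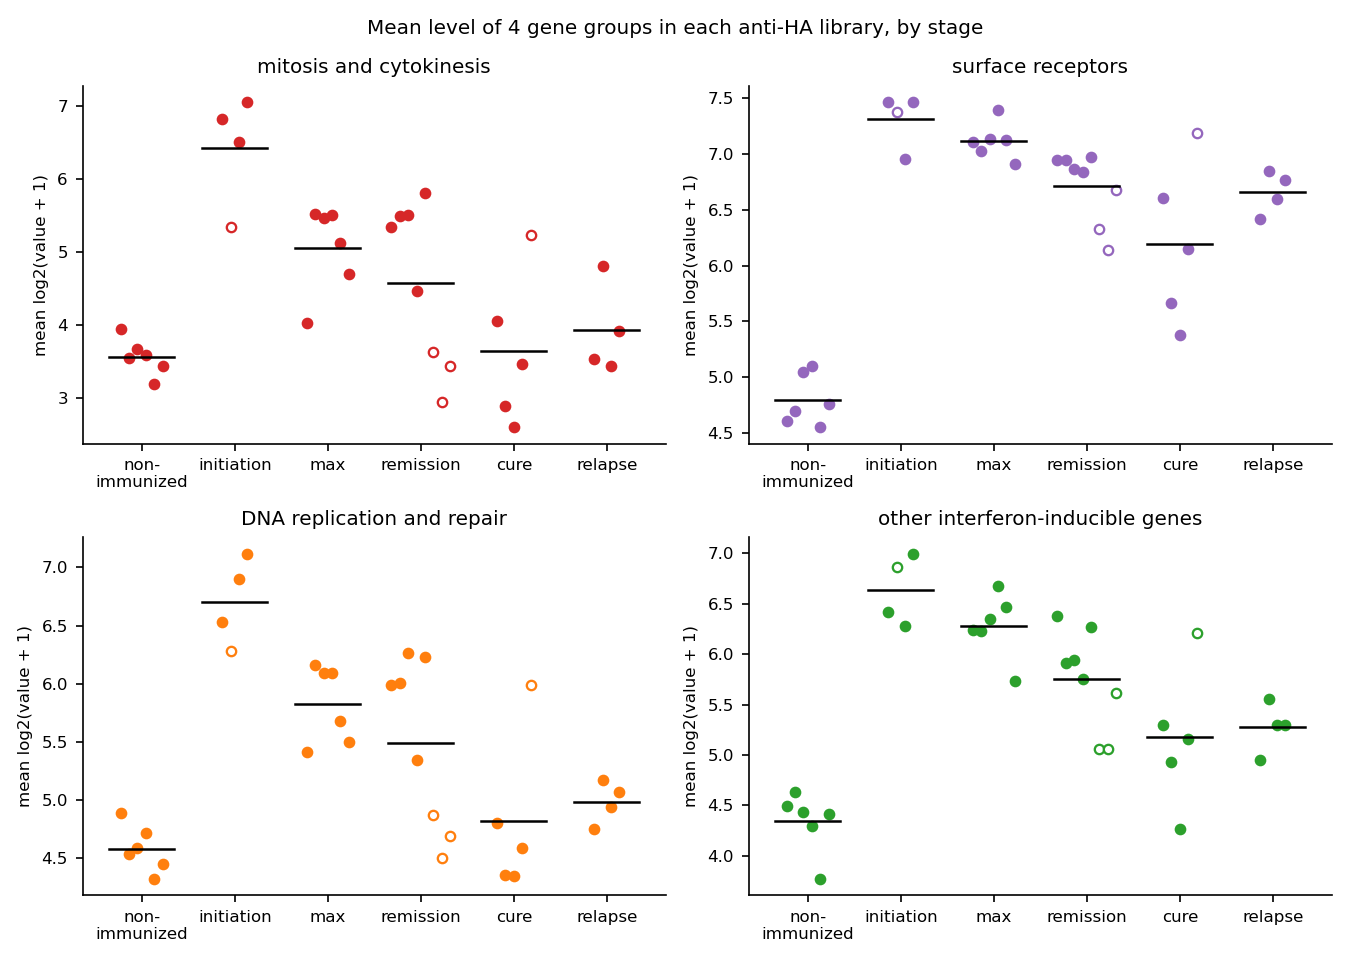
Mean log2(normalized reads + 1) over the genes of 4 groups of members in each anti-HA library, by disease stage. Hollow points are Initiation 2, Cure 5 and Remission 6 to 8, and black lines are stage means. At initiation the mitosis libraries spread from 5.34 to 7.05 and the surface receptor libraries from 6.96 to 7.46; at relapse the receptors lie at 6.42 to 6.85, above the non-immunized 4.55 to 5.10.

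Of 43 interferon-inducible genes of the fixed list that were in the table, 13 are members, 8 of them in 2a. Their median difference from non-immunized mice was 1.84 at initiation, 1.53 at maximum, 1.18 in remission, 0.51 in cure and 0.61 at relapse on the log2 scale, so that the level at maximum was only 0.31 below that at initiation. Replicates 1 to 4 of initiation gave 1.90, 1.95, 1.76 and 2.27, and replicate 2 did not stand apart here. Eif2ak2, the double-stranded RNA sensor PKR, had 131, 219, 151 and 191 normalized reads at initiation and 23.0 to 45.8 (median 40.2) in non-immunized mice, and 148 to 180 (median 166) at maximum. Its printed promoter carries 2 overlapping ISRE cores. Ube2l6, the E2 enzyme of ISG15 conjugation, had 161, 263, 354 and 483 at initiation and 26.2 to 185 (median 88.2) in non-immunized mice, and these ranges overlapped. Parp10, a mono-ADP-ribosyltransferase, had 156, 207, 225 and 279 at initiation and 42.5 to 99.8 (median 58.1) in non-immunized mice. Gm4841 had the largest difference of all members, 5.45 on the log2 scale, with 29.2, 101, 49.6 and 73.6 normalized reads at initiation and 0 to 1.71 (median 0) in non-immunized mice. That difference depends on the pseudocount of 1, since most non-immunized values were 0. In cure, Gm4841 had 22.8, 3.98, 5.08, 15.3 and 107, the last in the library that stood apart. Gm4841, Phf11b, Ms4a4c and Ms4a6d have close paralogs with which reads could be shared.

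A chosen group of surface receptors had the highest median at relapse among the groups described here. Other members that encode surface receptors, among them Notch4, Klrg2 and Tnfrsf13b, are not in it. The group of 10, all in 2a and put together after their values were seen, contains inhibitory receptors (Fcgr2b, Pirb, Cd72, Cd300lf, Milr1), Treml2, Amica1 and the G protein-coupled receptors Gpr35, Hcar2 and Adgrg5. Its median difference from non-immunized mice was 2.39 at initiation, 2.21 at maximum, 1.74 in remission, 1.04 in cure and 1.78 at relapse on the log2 scale, and 0.80 in cure without replicate 5. Cd300lf, a lipid-binding receptor with inhibitory motifs, had 474, 763, 631 and 584 normalized reads at initiation and 106 to 282 (median 128) in non-immunized mice. At relapse it had 660, 732, 359 and 511, which overlapped initiation and lay above every non-immunized library. Fcgr2b, the inhibitory Fc receptor, had 400, 146, 146 and 256 at initiation and 95.9 to 129 (median 102) in non-immunized mice, with 126, 180, 215 and 250 at relapse. Hcar2, the niacin and beta-hydroxybutyrate receptor, had 163, 306, 122 and 199 at initiation and 0.967 to 18.7 (median 5.66) in non-immunized mice. At relapse it had 90.4, 133, 88.3 and 142, again without overlap with non-immunized mice. Cd72, a B cell and myeloid co-receptor, had 153, 168, 203 and 182 at initiation and 5.87 to 27.9 (median 15.6) in non-immunized mice. Pirb, an MHC class I receptor with close paralogs, had 460, 547, 586 and 497 at initiation and 64.3 to 148 (median 100) in non-immunized mice.

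Csf2rb and its near-identical copy Csf2rb2 were the members on the list of cytokine receptors. Csf2rb encodes the signal chain shared by the GM-CSF, IL-3 and IL-5 receptors. Csf2rb had 312, 322, 295 and 366 normalized reads in anti-HA initiation libraries and 71.9 to 109 (median 77.4) in non-immunized mice. Csf2rb2 had 187, 115, 83.3 and 169 at initiation and 20.6 to 54.7 (median 47.0) in non-immunized mice, and how reads divide between the 2 genes is uncertain. Neither gene overlapped between these groups. Of NF-kappaB targets, Bcl3, a nuclear IkappaB protein, had 165, 150, 146 and 161 at initiation and 7.28 to 20.5 (median 11.7) in non-immunized mice. Birc3, an ubiquitin ligase of TNF receptor signalling, had 38.0, 121, 38.3 and 50.2 at initiation and 11.7 to 30.8 (median 24.3) in non-immunized mice, with replicate 2 the highest. Among transcription factors, chosen after their values were seen, Cebpb, a driver of myeloid inflammatory genes, had 1442, 1379, 1518 and 1665 at initiation and 291 to 603 (median 411) in non-immunized mice. Batf, an AP-1 family factor, had 110, 126, 124 and 97.0 at initiation and 11.7 to 60.9 (median 34.2) in non-immunized mice. The 9 signalling and transcription factor genes, which also include Jak3, Klf2 and Map4k1, had a median difference of 1.78 at initiation and -0.04 in cure on the log2 scale; in cure it was -0.28 without replicate 5 of cure and -0.13 without replicate 5 of the non-immunized libraries.

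**Figure D3:**
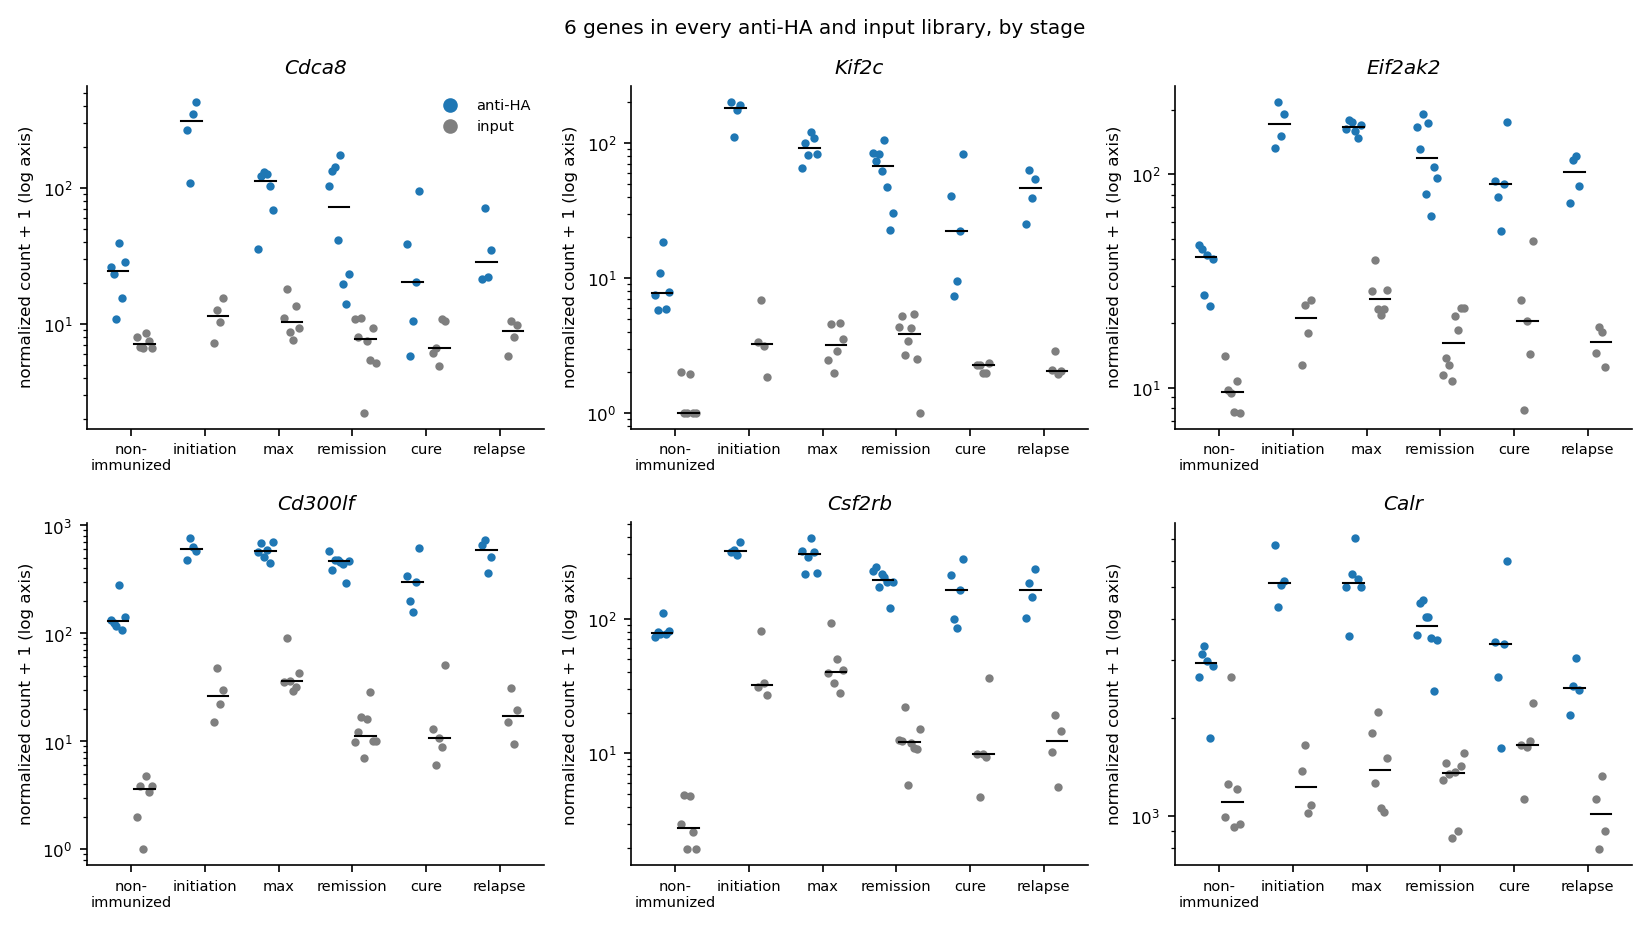
Normalized reads plus 1, on a log axis, of Cdca8, Kif2c, Eif2ak2, Cd300lf, Csf2rb and Calr in every library by disease stage, in anti-HA libraries (blue) and inputs (gray); lines are medians. In anti-HA libraries Cdca8 lies at 20.6 to 70.7 at relapse against 107 to 431 at initiation, Cd300lf at relapse (359 to 732) lies above its non-immunized range of 106 to 282, and in inputs Csf2rb lies at 26.3 to 80.2 at initiation and 0.935 to 3.88 in non-immunized mice.

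Members of the chaperone, translation, ribosome biogenesis and RNA processing groups had lower peaks, close to the difference of the median gene of the table. The 7 members of the endoplasmic reticulum chaperone list lay between 0.95 and 1.22 above non-immunized mice at initiation on the log2 scale, with a median of 1.08 against 1.24 for all genes. Calr, the calcium-binding lectin chaperone calreticulin, had 6715, 4351, 5084 and 5214 normalized reads at initiation and 1736 to 3295 (median 2925) in non-immunized mice. Hsp90b1, the chaperone GRP94 whose window holds 6 CCAAT boxes, had 1804, 1324, 1581 and 1901 at initiation and 452 to 1087 (median 685) in non-immunized mice. P4hb, protein disulfide isomerase, had 2104, 1936, 4118 and 3585 at initiation and 989 to 2101 (median 1340) in non-immunized mice, and replicate 2 lay inside the non-immunized range. The 5 members of the translation list had an initiation median of 1.06; Eif4a1, the cap-complex helicase, had 1138, 1176, 1354 and 1717 at initiation and 545 to 772 (median 635) in non-immunized mice. The 4 members of the ribosome biogenesis list had a median of 1.30. Among them Myc had 47.7, 40.5, 33.8 and 48.5 at initiation and 8.80 to 26.1 (median 16.2) in non-immunized mice, without overlap. Nop58, a box C/D snoRNP protein, had 231, 66.8, 58.6 and 88.6 at initiation, with 1 library far above the others, and 31.0 to 44.4 (median 38.6) in non-immunized mice. The 12 RNA processing and export genes, grouped after their values were seen, had a median of 1.15 at initiation; Alyref, an mRNA export adaptor, had 89.6, 136, 106 and 162 at initiation and 41.2 to 108 (median 69.5) in non-immunized mice, but 29.4, 26.2, 17.3, 29.7 and 43.1 in cure.

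Single genes of other roles are given next. Tspo, the mitochondrial translocator protein that serves as a PET ligand target for microglial activation and is named here after its values were seen, had 6141, 6026, 8382 and 9670 normalized reads at initiation and 610 to 1156 (median 1031) in non-immunized mice. AB124611 had 408, 688, 473 and 692 at initiation and 13.3 to 54.2 (median 35.5) in non-immunized mice. In both genes the lowest initiation library was several times the highest non-immunized one. Hk2, the hexokinase at the entry of glycolysis, had 143, 111, 92.4 and 71.9 at initiation and 34.0 to 58.5 (median 44.3) in non-immunized mice. Atic, an enzyme of purine synthesis, had 328, 223, 394 and 354 at initiation and 110 to 174 (median 155) in non-immunized mice. Neither overlapped. The actin regulators Pfn1 and Zyx had broad ranges: Pfn1 had 500, 409, 732 and 522 at initiation, 332 to 668 (median 588) at maximum and 207 to 640 (median 373) in non-immunized mice, and Zyx had 686, 1134, 496 and 563 at initiation and 278 to 870 (median 552) in non-immunized mice. For both, initiation and non-immunized libraries overlapped. The monocyte marker F13a1, which border macrophages also express, had 404, 364, 180 and 308 at initiation and 92.2 to 229 (median 183) in non-immunized mice.

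Whole-brain inputs give the same stages in libraries whose own values did not choose the members. They come from the same homogenates as the anti-HA libraries, so they are not independent of that choice. At initiation 70 of the 249 members rose against non-immunized inputs and 0 fell (limma, Benjamini-Hochberg adjusted p below 0.05 over 716 genes), while 39.2% of all genes of the table rose and 0.279% fell. The members' share of rises, 28.1%, was therefore below the background, and their median log2 fold change was 0.34 against 0.53 for all genes. In subcluster 2a 36 of 80 rose and in 2b 34 of 169. Without replicate 2 of initiation 50 members rose and 1 fell. The share of all genes in that fit is not given here, so the recount is not set against a background. The direction of the median depended on the scaling: it was -0.51 with quantile normalization, where the median of all genes was -0.36, and -0.21 with TMM, where that of all genes was 0.02. With quantile normalization 22 members rose and 90 fell, with TMM 39 rose and 43 fell, and with edgeR on the deposited size factors 66 rose and 0 fell. Over all 716 genes 131 rose and 207 fell with quantile normalization and 191 rose and 102 fell with TMM. With the deposited size factors 282 rose and 2 fell.

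At maximum 91 members rose and 2 fell in inputs (53.4% of all genes rose), in remission 46 rose and 0 fell (33.9%), in cure 36 rose and 5 fell (24.4%) and at relapse 42 rose and 7 fell (26.8%). At every stage the members' share of rises lay below that of the table. Of all genes 1.82% fell at maximum, 0% in remission, 0.838% in cure and 1.12% at relapse. The members' shares of falls were 0.803%, 0%, 2.01% and 2.81% in the same order, above the table in cure and at relapse. Without replicate 5 of cure 18 members rose in cure, and without replicate 2 of relapse 27 rose at relapse. The shares of all genes in these 2 fits are not given here, so nothing about the members is read from the recounts. With quantile normalization 29 members rose and 154 fell at maximum, 23 rose and 78 fell in remission, 16 rose and 27 fell in cure, and 16 rose and 36 fell at relapse. With TMM 43 rose and 83 fell at maximum, 29 rose and 49 fell in remission, 23 rose and 18 fell in cure, and 25 rose and 30 fell at relapse. Over all 716 genes, quantile normalization gave 165 up and 315 down at maximum and 120 up and 163 down in remission. It gave 76 up and 67 down in cure, and 81 up and 77 down at relapse. The TMM counts over all genes were 237 up and 179 down at maximum and 162 up and 101 down in remission. They were 129 up and 45 down in cure, and 125 up and 48 down at relapse. By limma on the deposited values, the 2 that fell at maximum were E2f1 and Nmral1. The 5 that fell in cure were Alyref, Kif22, Lsm2, Nmral1 and Noc4l, and the 7 that fell at relapse were Alyref, Cdc25b, Chaf1b, Creld2, Lsm2, Pfn1 and Ybx3. Pfn1 had 19.98, 13.2, 17.8 and 14.04 normalized reads in relapse inputs and 27.2 to 60.1 (median 39.2) in non-immunized inputs, a log2 fold change of -1.25 ± 0.28 (SE, adjusted p = 0.00121). With a term that separates the inputs of cure, relapse and remission replicates 7 and 8 from the other inputs the value was -0.92 (adjusted p = 0.192). Between maximum and initiation inputs, limma called 0 of 249 members lower (0% of all genes) and 0 higher (0.838% of all genes). EdgeR also called 0 members either way. An unadjusted limma p under 0.05 was met by 12 of 249 members and by 86 of all 716 genes. In inputs the highest stage mean was at maximum for 104 members and at initiation for 51. This was not counted over all genes, so nothing about the members is read from it. The median log2 fold change of maximum over initiation inputs was 0.07 for the members and 0.19 for all genes.

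The counts in inputs are given by group beside the 39.2% of all genes that rose at initiation, and no test compared the groups. That share belongs to the fit with every library, and the share without replicate 2 is not given here. All 10 surface receptors, a group put together after its values were seen, rose at initiation, with a median log2 fold change of 2.28 (0.98 with quantile normalization, 2.45 with TMM), and all 10 rose at maximum. Among member receptors outside this group, Il15ra, Csf2rb and Csf2rb2 rose at initiation. Notch4 (-0.16, limma adjusted p = 0.669) and Klrg2 (0.24, adjusted p = 0.717) were not called, and Tnfrsf13b had 0 reads in these inputs. The 10 of 10 therefore describes the chosen genes, not member receptors at large. Of the 13 interferon-inducible members 12 rose, with a median of 1.85 (0.61 with quantile normalization, 1.86 with TMM), and 9 rose without replicate 2 of initiation. Of the 26 mitosis genes 9 rose, a share near that of all genes, or 6 without replicate 2, with a median of 0.80 that was 0.43 with TMM but -0.31 with quantile normalization. Of the 23 replication genes 4 rose, or 0 without replicate 2, with a median of 0.12 that was -0.45 with TMM and -0.64 with quantile normalization. Of the 7 endoplasmic reticulum chaperone genes and the 12 RNA processing genes 0 were called by limma. The median member had 27.8 reads per input library at initiation and 16.8 in non-immunized mice. The median surface receptor had 10.9 and 1, the median mitosis gene 7 and 3, the median replication gene 22.5 and 14.5 and the median endoplasmic reticulum chaperone gene 370.5 and 298.5. The parts of depth and of cells without the tag in these counts were not tested; the summed monocyte markers in inputs were 17.8 to 26.7 normalized reads at initiation and 2.9 to 8.9 in non-immunized mice.

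**Figure D4:**
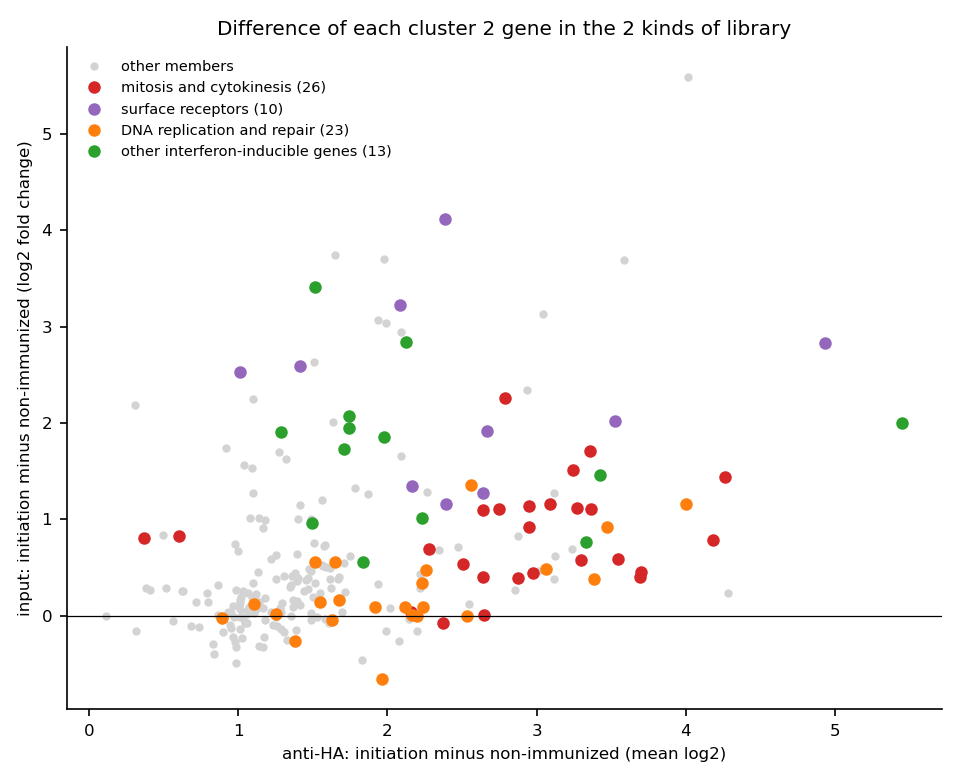
Each point is 1 of the 249 genes: the mean log2 difference between initiation and non-immunized mice in anti-HA libraries (x) and the log2 fold change of the same stages in inputs (y), both as deposited. Mitosis, replication, interferon-inducible and surface receptor genes are coloured; the anti-HA axis chose the genes and carries no test. Mitosis and replication genes reach 4.26 and 4.00 on x with input medians of 0.80 and 0.12, signs that turn or shrink under other scalings, while receptors have an input median of 2.28.

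Values of single genes in inputs follow. Csf2rb had 29.9, 80.2, 32.0 and 26.3 normalized reads in initiation inputs and 0.935 to 3.88 (median 1.81) in non-immunized inputs, a log2 fold change of 3.70 ± 0.44 (SE, adjusted p = 7.75e-08). Pirb had 27.5, 142, 33.5 and 42.5 at initiation and 0.935 to 4.02 (median 1.91) in non-immunized inputs, with 4.12 ± 0.44 (adjusted p = 2.29e-08). Bcl3 had 31.4, 64.3, 28.5 and 34.0 at initiation and 0 to 3.82 (median 2.46) in non-immunized inputs, with 3.69 ± 0.40 (adjusted p = 3.11e-08). None of the 3 overlapped, and replicate 2 was the highest in each. Tspo had 248, 672, 338 and 419 at initiation and 49.6 to 103 (median 83.5) in non-immunized inputs, with 2.35 ± 0.29 (adjusted p = 1.76e-07). Eif2ak2 had 11.8, 23.4, 17.1 and 24.6 at initiation and 6.61 to 13.1 (median 8.57) in non-immunized inputs, with 1.02 ± 0.33 (adjusted p = 0.0136); the adjusted p was 0.0583 without replicate 2 and 0.0536 without replicate 4. Its ranges overlapped, as replicate 1 lay below the highest non-immunized input.

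Cell cycle genes with low input counts varied. Tuba1c had 34.6, 59.3, 33.5 and 49.3 normalized reads in initiation inputs and 4.85 to 11.4 (median 9.39) in non-immunized inputs, a log2 fold change of 2.26 ± 0.32 (adjusted p = 1.05e-06). Kif2c had 2.36, 5.85, 2.14 and 0.849 at initiation and 0 to 1.01 (median 0) in non-immunized inputs, with 1.44 ± 0.36 (adjusted p = 0.00172), a fold that depends on the pseudocount of 1. Cdca8 had 6.29, 11.7, 9.26 and 14.4 at initiation and 5.61 to 7.63 (median 6.14) in non-immunized inputs, with 0.59 ± 0.33 (adjusted p = 0.173). Cdca8 thus did not pass the test although 3 of 4 initiation inputs lay above the non-immunized range. Kif22, a kinesin that moves chromosome arms, had 73.1, 35.9, 66.9 and 56.9 at initiation and 42.7 to 65.1 (median 58.9) in non-immunized inputs, with 0.01 ± 0.25 (adjusted p = 0.983). Calr had 1375, 1655, 1026 and 1079 at initiation and 928 to 2661 (median 1105) in non-immunized inputs, with 0.03 ± 0.26 (adjusted p = 0.953). Hsp90b1 had 212, 195, 387 and 318 at initiation and 143 to 383 (median 274) in non-immunized inputs, with 0.04 ± 0.29 (adjusted p = 0.942). For Kif22, Calr and Hsp90b1 the ranges of the groups overlapped.

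Levels in anti-HA libraries were set beside those of the other kinds of library; since anti-HA values chose the members, these differences are a description and nothing about the members is read from their calls. At initiation 248 of 249 were higher in anti-HA libraries than in inputs, against 94.1% of all genes, and 246 were higher than in IgG libraries, against 95.4% of all genes. In non-immunized mice 187 were higher and 4 lower in anti-HA libraries than in inputs (82.1% of all genes were higher), with a median log2 fold change of 1.36 against 2.00 for all genes. At initiation that median was 2.61 against 2.64 for all genes. By group, the anti-HA over input median was 3.56 at initiation and 1.60 in non-immunized mice for mitosis genes, 2.76 and 0.86 for replication genes, 3.13 and 2.32 for interferon-inducible genes, 4.47 and 3.42 for surface receptors and 2.44 and 1.43 for endoplasmic reticulum chaperones. Quantile normalization and TMM, which assume that most genes do not change, set the all-gene median at initiation to -0.06 and 0.11, and 57 and 60 members were then higher and 71 and 69 lower in anti-HA libraries than in inputs, so that an enrichment here is one relative to the deposited size factors. Over all genes 182 and 200 were then higher and 205 and 198 lower.

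On the log2 scale with a pseudocount of 1, Kif2c had the largest difference between anti-HA libraries and inputs at initiation, 5.60 ± 0.56 (SE), followed by D17H6S56E-5 with 5.29 ± 0.40; the inputs held only 0.849 to 5.85 normalized reads of Kif2c, and its value was 6.12 with a pseudocount of 0.1 and 3.78 with one of 10. The smallest belonged to Mrpl21, a mitochondrial ribosomal protein gene, with 0.77 ± 0.63. Its anti-HA values were 106, 4.05, 20.3 and 40.1 normalized reads, and the fold was 1.56 without replicate 2. Magohb, an exon junction complex gene, followed with 0.94 ± 0.29, and in non-immunized mice it was lower in anti-HA libraries than in inputs, at -0.72 ± 0.23. Kif22 was also lower there, at -0.77 ± 0.32. The IgG background moved with the stage too: 49 members were higher in IgG libraries at initiation than in non-immunized IgG libraries and 0 were lower, against 30.7% of all genes higher, with a median of 0.31 for the members and 0.53 for all genes. With quantile normalization 23 members were higher and 52 lower, and with TMM 34 higher and 27 lower. Over all genes 111 were higher and 119 lower with quantile normalization, and 176 higher and 70 lower with TMM. By limma as deposited, 7 of the 10 chosen surface receptors were higher (median 2.01), as were 8 of 9 signalling and transcription factor genes (1.36). Among interferon-inducible genes 6 of 13 were higher (1.56), among mitosis genes 1 of 26 (0.48) and among replication genes 1 of 23 (0.07). Bcl3 stood at 4.04, Pirb at 4.01, Csf2rb at 3.54 and Calr at 0.07. The part of this background in the anti-HA differences was not tested.

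Loss of the interferon gamma receptor in tagged cells was followed in 204 genes that the authors chose on those libraries, 13 of which are members. The targeted gene was lower in ko/fl anti-HA libraries: Ifngr1 had 81.0, 88.4, 127 and 76.7 normalized reads in ko/fl mice, against 299.9, 304.6, 299 and 232 in ko/wt mice, a log2 fold change of -1.62 ± 0.24 (SE, adjusted p = 0.0003576). In inputs Ifngr1 had 10.1, 10.7, 17.1 and 19.7 in ko/fl mice and 21.1, 15.02, 13.3 and 23.8 in ko/wt mice (-0.34 ± 0.27, adjusted p = 0.881). In anti-HA libraries 13 of the 13 members fell and 0 rose, against 61.3% of the table's genes that fell and 36.3% that rose. Their median was -1.23 and that of all 204 genes -1.05. With quantile normalization 7 of the 13 were called, with a median of -0.58 against -0.40 for all genes, and with TMM 7 were called (-0.66 against -0.50). Of all 204 genes, quantile normalization called 76 higher and 80 lower, and TMM called 78 higher and 86 lower. Since the table holds genes selected for a difference between these genotypes, the calls say which members were among them and in which direction.

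Rnase6, an antimicrobial ribonuclease, had 9.88, 12.2, 3.88 and 5.68 normalized reads in ko/fl anti-HA libraries and 57.6, 63.6, 34.5 and 49.7 in ko/wt libraries, a log2 fold change of -2.63 ± 0.35 (adjusted p = 0.0002065). Gm4841 had 3.95, 7.62, 4.85 and 11.4 in ko/fl libraries and 27.6, 33.8, 30.9 and 127 in ko/wt libraries (-2.59 ± 0.50, adjusted p = 0.001508). Neither gene overlapped between genotypes, and 1 ko/wt library held the high value of Gm4841. Il15ra, the IL-15 presenting receptor chain, had 27.7, 22.9, 17.5 and 17.04 in ko/fl libraries and 63.0, 110, 74.4 and 43.5 in ko/wt libraries. AB124611 had 131, 74.7, 137 and 71.0 in ko/fl libraries and 334, 375, 328 and 251 in ko/wt libraries. Both had a log2 fold change of -1.68, and neither overlapped. Naaa, a lysosomal hydrolase of N-acylethanolamines, had 278, 213, 191 and 170 in ko/fl libraries and 476, 570, 580 and 567 in ko/wt libraries (-1.38 ± 0.23). Tgm2, transglutaminase 2, had 296, 276, 258 and 293 in ko/fl libraries and 451, 500, 650 and 720 in ko/wt libraries (-1.02 ± 0.23). Hcar2 had 160, 177, 136 and 116 in ko/fl libraries and 277, 358, 363 and 392 in ko/wt libraries (-1.24 ± 0.23, adjusted p = 0.001242). In each of these genes every ko/fl library lay below every ko/wt library. The share of all genes of that table without overlap was not counted. Its genes were chosen for a difference between these libraries, so nothing is read from the separation.

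The other members that fell were Smtn (-1.23), Nubp1 (-0.99), Noc4l (-0.86), Rab43 (-0.78), Tmed1 (-0.69) and Fen1 (-0.68). None of these genes kept the call with quantile normalization (limma) or TMM (edgeR). Their adjusted p then ran from 0.0593 (Smtn, TMM) to 0.682 (Fen1, TMM). In addition, Noc4l lost the call without ko/fl replicate 2 or ko/wt replicate 4, and Tmed1 and Fen1 lost it in most fits that left out 1 library. Fen1, the flap endonuclease of replication, was the only member of the replication list in that table, and none of the 26 mitosis members was in it. Only 13 of all 249 members are in that table of chosen genes, so nothing is read from these absences. In inputs 1 of the 13 was called lower and 0 higher (0.49% of the table's genes each way). This was Hcar2, with 4.17, 2.67, 2.76 and 4.92 normalized reads in ko/fl inputs and 9.33, 9.95, 9.08 and 15.7 in ko/wt inputs (-1.37 ± 0.24, adjusted p = 0.02395). Without single libraries its adjusted p was between 0.0527 and 0.11 in 7 of 8 fits.

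**Figure D5:**
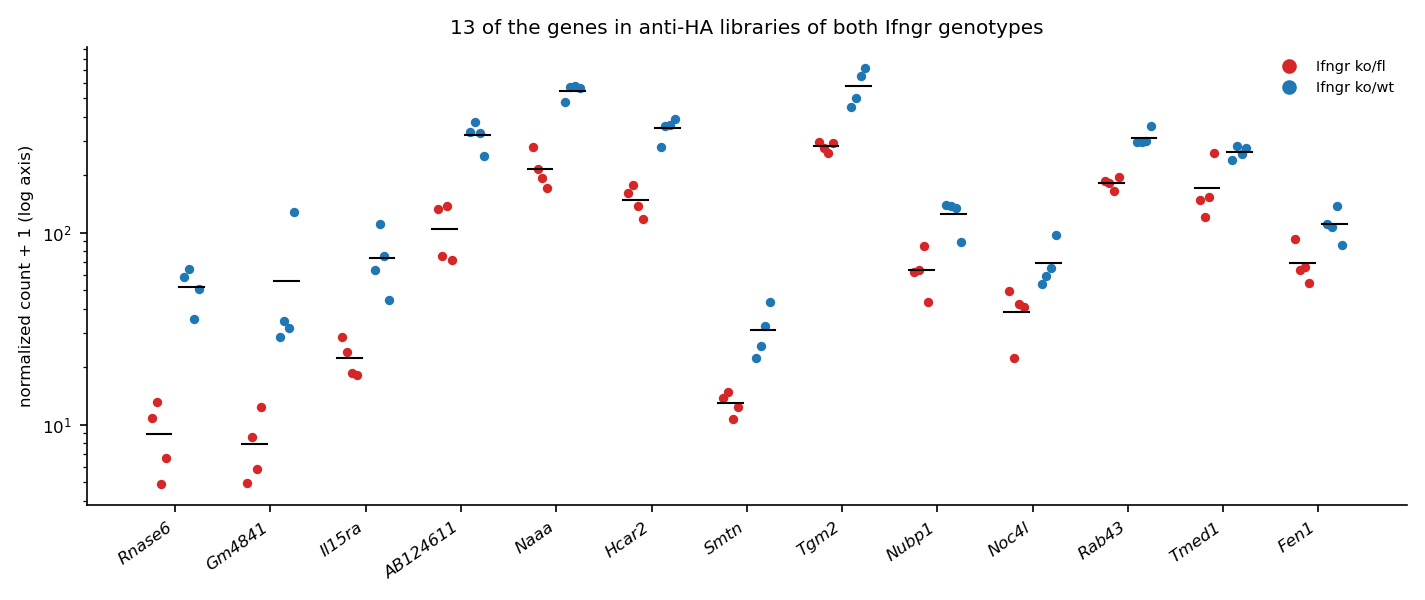
Normalized reads plus 1, on a log axis, of the 13 members of the Ifngr table in each anti-HA library of ko/fl (red, left) and ko/wt (blue, right) mice; lines are means. All 13 means are lower in ko/fl mice, with log2 fold changes from -2.63 (Rnase6) to -0.68 (Fen1).

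In sorted T cells, 216 of the members were in the authors' deposited table of ko/fl against ko/wt CD25pos cells, and 0 of them passed an adjusted p of 0.05, against 3 genes higher and 15 lower of 8627 (0.209%). At 0.1, 1 member was higher and 1 lower, against 1.19% of all genes in either direction. Birc3 had 12.6 ± 4.72 normalized reads in ko/fl cells (SD, n = 6) and 3.62 ± 3.41 in ko/wt cells (SD, n = 5), with a log2 fold change of 1.88 and an adjusted p of 0.0867 in the authors' deposited table. Lig1 had 20.7 ± 4.94 in ko/fl cells (n = 6) and 43.5 ± 16.3 in ko/wt cells (n = 5), with -1.04 and an adjusted p of 0.0631 in the authors' deposited table.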

How the data were processed

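The members and the gene lists were chosen with earlier results of these data known. Libraries were grouped by their titles. The deposited values are of the kind signal: reads per gene after division by the library's size factor. This was read from the values, since 100% of values in every column were whole multiples of 1 step, taken as 1 read (tolerance 0.01 of a step plus 1e-07 of the multiple) and neither headers nor labels state it. Tables hold only genes the authors chose on the same libraries, and levels were compared only within a table. Log2 fold changes and adjusted p-values in the authors' deposited columns were made by a method that is not given in the sources used here, and the cluster and subcluster codes, another kind of value, are theirs per the file headers. The genome build was mm10 per the submitters' processing notes; for aligner, counter, annotation and strand setting the entry is "not given in the sources used here", so overlapping and antisense genes cannot be told apart.

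The design assumed raw counts and edgeR; because the deposited values are normalized, limma 3.58.1 (R 4.3.3) was run on log2(value + 1), without a filter on low values, with Benjamini-Hochberg adjustment over the whole table. Fold changes on this scale understate those of low genes. Input, IgG and mixed fits each used the libraries of all 6 stages, which share 1 estimate of spread; the Ifngr fits used both genotypes. Anti-HA differences between stages are means of log2 values and were not tested, because they chose the members. Differences of anti-HA libraries from inputs and IgG are, for the same reason, given as a description. Alternatives were pseudocounts of 0.1 and 10, a mean value of at least 10, quantile normalization, edgeR 4.0.16 with TMM or the deposited size factors on the recovered reads, a replicate block, a term separating the inputs of cure, relapse and remission replicates 7 and 8 from the other inputs (a split seen in earlier results, not a labelled batch), and leaving out each library. Genes were named by rank within each list at initiation, by the largest and smallest differences between stages, and by the largest and smallest fold changes in inputs, anti-HA over input and the Ifngr comparison. Deviations of same-numbered anti-HA and input libraries correlated with r from 0.15 to 0.60 at initiation and from 0.01 to 0.23 in non-immunized mice. Anti-HA and IgG libraries of initiation gave 0.24 to 0.55. At initiation, anti-HA replicate 3 correlated better with an input of another number. Replicate 4 of the ko/fl and ko/wt anti-HA libraries, from different genotypes, reached 0.58. A shared number therefore does not establish a pair of samples. Scripts were tested on simulated data. Promoter windows came from RefSeq (GRCm38.p6).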

Additional observations from a re-analysis of the deposited data

Results flagged for a closer look

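In 185 groups of 4 to 8 libraries, 21 values stood far from the other libraries of their group by Dixon's criterion, which chance alone meets in about 1 of 20 groups. Replicate 2 of the initiation inputs was the highest for 6 genes: Pirb at 142 normalized reads (others 27.51 to 42.47), Csf2rb at 80.19 (26.33 to 32.05), Csf2rb2 at 51.79 (11.01 to 17.84), Bcl3 at 64.32 (28.49 to 33.97), Ms4a6d at 70.16 (13.53 to 17.29) and Hcar2 at 14.2 (4.985 to 6.289). All 6 remained called without it. Replicate 5 of the non-immunized anti-HA libraries was low in the mean log2 level of the members, at 5.054 (others 5.418 to 5.585), of the further endoplasmic reticulum and secretory genes, at 6.942 (7.35 to 7.575), and of the signalling and transcription factor genes, at 5.382 (5.926 to 6.24). Replicate 5 of the cure anti-HA libraries was high in the replication genes, at 5.987 (4.35 to 4.808), and replicate 4 of initiation in the RNA processing genes, at 8.306 (7.705 to 7.805), and in Aaas, at 85.28 normalized reads (47.31 to 50.62).

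In non-immunized inputs, Calr had 2661 normalized reads in replicate 3 (others 928.1 to 1253), Lig1 43.25 in replicate 1 (16.48 to 23.59), AB124611 4.847 in replicate 2 (0 to 0.8083) and Hcar2 0.9437 in replicate 6 (others 0). In ko/wt anti-HA libraries, Naaa had 476.2 in replicate 1 (others 566.8 to 580.4), and replicate 4 had 127.5 for Gm4841 (27.61 to 33.77), 359.6 for Rab43 (294.2 to 298.4) and 88.08 for Nubp1 (133.1 to 137.6). In ko/wt inputs Hcar2 had 15.69 in replicate 4 (9.079 to 9.948). No reason for these values was tested.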

How the results depend on the processing

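With quantile normalization, members called higher numbered 22, 29, 23, 16 and 16 in inputs of initiation, maximum, remission, cure and relapse against non-immunized inputs, 39 and 57 in anti-HA over input of non-immunized mice and initiation, 66 in anti-HA over IgG and 23 in IgG of initiation against non-immunized mice; 7 of 13 were called in Ifngr anti-HA libraries, the anti-HA median at initiation was 0.33, and 142 members peaked at initiation. With TMM the counts were 39, 43, 29, 23 and 25 in inputs, 53 and 60 over input, 70 over IgG and 7 in Ifngr libraries. Both scalings centre a table of chosen genes. Over all genes, those called higher with quantile normalization numbered 131, 165, 120, 76 and 81 in inputs and 216 and 182 over input. They numbered 196 over IgG and 111 in IgG. With TMM the all-gene counts were 191, 237, 162, 129 and 125 in inputs, 281 and 200 over input and 205 over IgG. Magohb, Gpatch4 and Aaas, higher in anti-HA libraries than inputs at initiation as deposited, turned to -1.87, -1.60 and -1.62 with quantile normalization and -1.62, -1.46 and -1.58 with TMM. A mean value of at least 10, which left 167 members to test in inputs, gave 43, 54 and 26 at initiation, maximum and remission. The term for the split inputs gave 14 in cure and 17 at relapse; the cause was not tested. The 1 Ifngr input call was 0 with a pseudocount of 10, the mean filter or edgeR on deposited size factors. Leaving out single libraries gave 50 to 74, 74 to 95, 41 to 48, 18 to 46 and 27 to 41 in the inputs, 177 to 192 and 245 to 249 over input, 243 to 247 over IgG, 37 to 52 in IgG, 10 to 13 and 0 to 1 in Ifngr anti-HA libraries and inputs, 1.37 to 1.54 for the anti-HA median and 229 to 249 for the peak. With the replicate block the counts were 72, 91, 44, 42 and 40 in inputs, 195 and 248 over input, 247 over IgG, 47 in IgG, 13 and 1 in Ifngr libraries, and it moved no count by over 1.5 times. Counts over all genes under the mean filter, the split term, the block and the left-out libraries are not given here. Nothing about the members is therefore read from those counts. Of 813 values of single genes under an alternative, 756 kept direction and side of the threshold, 49 lost the call, 2 gained it and 6 turned. Inputs held a median of 16.8 reads per member and library in non-immunized mice; the part of depth in the calls was not tested.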
